A study of Rattus norvegicus with 11 samples.

Results

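The genes described here are the regulators and targets of the transcription factor Nrf2 together with the thioredoxin, glutathione and other antioxidant enzymes of the liver. They were chosen by name, as a list of 41 genes drawn up with earlier results of these data known. In the whole series 14218 genes had a probe set with 1 gene symbol on the array. Of the 41, 40 had such a probe set and 39 were bright enough to be tested. The probe set of Prdx1, a peroxiredoxin, was annotated to several genes, so no signal of Prdx1 is given. Slc7a11, the cystine importer that supplies cysteine for glutathione, lay under the signal filter and is given as values only. Each gene was represented by its brightest probe set over the 11 arrays.

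The livers came from 8 Wistar rats given the high dose of mequindox and from 3 control Wistar rats, with 1 array per animal. Mequindox is a veterinary antibacterial of the quinoxaline N-oxide type. How much was given, for how long and what the controls received are not given in the sources used here. The age on the labels was week 9 for 10 of the rats and week 10 for high-dosed animal 8. The design text of the series says that the groups were chosen for arrays once metabolite profiles of liver extracts and clinical chemistry were known.

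Nrf2, encoded by Nfe2l2, is held in the cytoplasm by Keap1 and degraded. Electrophiles and oxidants modify cysteines of Keap1, Nrf2 then enters the nucleus, pairs with a small Maf protein such as MafG, and binds antioxidant response elements, while Bach1 competes for the same elements. Its targets make glutathione, reduce thioredoxin and quinones, break down heme and take part in NADPH supply and the pentose phosphate pathway. Superoxide dismutases, catalase, glutathione peroxidases and most peroxiredoxins are made in hepatocytes at all times, and they are called constitutive here, although some, such as Txn1, can also respond to Nrf2.

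Signal is the deposited intensity on a linear scale. Differences are log2 fold changes, high-dosed minus control, of log2(intensity + 55.26), so that a positive value is higher in high-dosed animals and the change of dim genes is understated. A gene was called at an adjusted p below 0.05 in limma with Benjamini-Hochberg adjustment over all 10714 genes tested, and every adjusted p of a gene below is from that fit. Median intensities per array ran from 149 to 186 in high-dosed animals and from 162 to 176 in controls. The summed signal of 10 hepatocyte markers on the array, among them Alb, was 183116 to 190788 in high-dosed animals and 184692 to 186350 in controls. The brightest markers weigh most in this sum. Of the 10, Apoa1 was called higher (0.35), Asgr1 was called lower (-0.18) and 8 did not pass, where 10.6% of all genes tested were called.

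These genes were called about as often as all genes tested. Srxn1, which reduces overoxidised peroxiredoxins, Mt2A, a metallothionein that binds zinc and copper, and Nfe2l2 itself were higher in high-dosed livers, and Nqo1, a quinone reductase often used as a marker of Nrf2 activity, was lower. These were 4 of 39 tested members, or 3 higher and 1 lower. Of all genes tested, 10.6% were called, 7.91% higher and 2.74% lower, so the members' count was near that background. An unadjusted limma p below 0.05 was reached by 14 of the 39 members and by 2753 of the 10714 genes tested. With 3 controls, a gene that was not called is not thereby shown to be unchanged. The share of higher calls among all called genes was 74.2% as deposited, 63.9% after quantile normalization and 82.7% after median centring. Without control 1 limma called 323 of 10722 genes, and 3 members, Srxn1, Mt2A and Txnrd2.

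**Figure D1:**
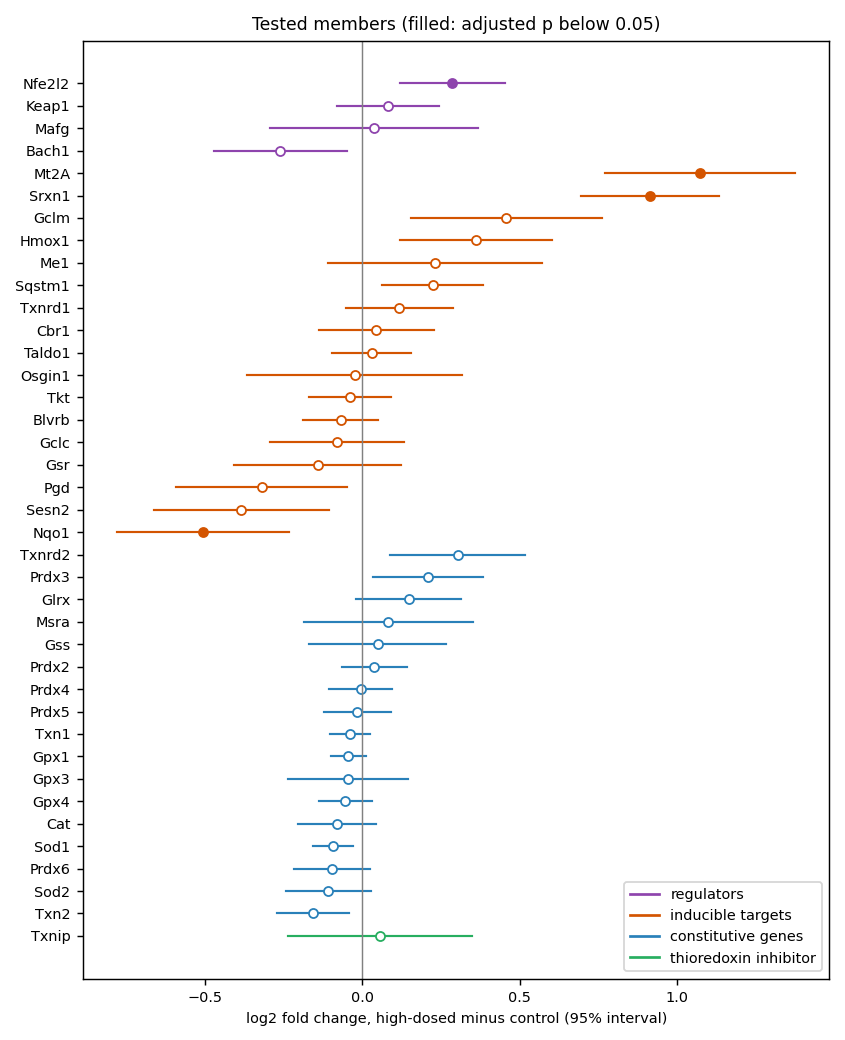
Log2 fold change, high-dosed minus control, of the 39 tested members with its 95% interval (horizontal axis), one gene per line, grouped and coloured by role. Filled points are the 4 called genes. The intervals of Mt2A, Srxn1 and Nfe2l2 lie above 0 and that of Nqo1 lies below 0. Intervals are not adjusted for the number of genes, and those of several open points also leave out 0.

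The inducible targets spread widely in both directions. Of 18 on the list 17 were tested, and 2 rose, 1 fell and 14 did not pass. Their log2 fold changes ran from -0.51 to 1.07 with a median of 0.030, against a median of 0.017 over all genes tested, and 9 lay above 0 and 8 below. Of 18 constitutive genes 17 were tested and limma called 0. At an unadjusted p below 0.05 stood 8 of the 17 inducible targets, 4 of the 17 constitutive genes and 2753 of the 10714 genes tested. The constitutive genes' log2 fold changes ran from -0.16 to 0.30 with a median of -0.039, and 6 lay above 0 and 11 below. The high-dosed and control animals did not overlap for 3 of the 17 inducible targets and for 1 of the 17 constitutive genes, where 12.1% of all genes tested did not overlap. In median, the inducible targets also varied more among animals of 1 group. The median SD of log2 signal among high-dosed animals was 0.173 for the inducible targets and 0.077 for the constitutive genes, and among controls it was 0.151 for the inducible targets and 0.066 for the constitutive genes. The ranges overlapped. Among high-dosed animals the SD ran from 0.06 to 0.309 for the inducible targets and from 0.031 to 0.178 for the constitutive genes. Of the constitutive genes the bright Sod1 had the lowest SD and the dimmer Gss the highest. The part of brightness in these values and the difference between these classes were not tested.

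Srxn1 encodes sulfiredoxin and is a strong Nrf2 target. Its brightest probe set had a lowest intensity of 522, a median of 640.5 and a highest of 769.7 in high-dosed animals, against 319, 295 and 309 in controls 1, 2 and 9. Every high-dosed animal lay above every control, and the controls lay close together. The log2 fold change was 0.91 ± 0.10 (SE, 8 high-dosed and 3 control animals), or 1.88-fold, with a limma adjusted p of 0.000388. By p it ranked 18 of the 10714 genes. The call held in each of 18 other settings, with log2 fold changes from 0.445 to 1.03 and a highest adjusted p of 0.00929.

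A different probe set of Srxn1 did not show this rise. It ran from 249.6 to 454 in high-dosed animals and was 335, 388 and 302 in controls 1, 2 and 9, so the groups overlapped fully. Its log2 fold change was -0.024 ± 0.13 (limma over 18625 probe sets, adjusted p = 0.938), and it turned to 0.0153 after median centring and to 0.0265 and 0.0593 without high-dosed animal 11 or control 2. The third Srxn1 probe set lay under the signal filter, with 33.8 to 50.7 in high-dosed animals and 40.4 to 47.5 in controls. The lowest log2 fold change of Srxn1, 0.445, came from averaging its probe sets. Which part of the transcript each probe set reads was not given in the sources used here.

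Mt2A had the largest log2 fold change of the tested members. Its lowest intensity was 11312, its median 13006 and its highest 15792 in high-dosed animals, against 5033, 8867 and 5532 in controls 1, 2 and 9. All high-dosed animals lay above all controls, and control 2 stood above the other two. The log2 fold change was 1.07 ± 0.14, or 2.11-fold, with a limma adjusted p of 0.00119. The call held in each of the 18 other settings, with log2 fold changes from 0.916 to 1.32. Metallothioneins also respond to zinc and to glucocorticoids. The related metallothionein Mt1 had a log2 fold change of 0.010 (limma adjusted p = 0.972), with intensities of 626 to 1059 in high-dosed animals and 787 to 921 in controls. Sequence shared between these paralogs could cross-hybridise, which was not tested.

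The windows around the annotated starts of the 3 called target genes are shown because Nrf2, metal-responsive and related factors act through short elements near such starts. Each runs from 250 bases before to 50 after the start, 5′ to 3′ on the gene's strand, from RefSeq on build GRCr8. Capitals mark matches on either strand to the antioxidant response element core TGACNNNGC, to the metal response element core TGCNCNC, or to the heptamer TGANTCA, which bZIP factors of the AP-1 and Nrf2 families share and which was added after the windows were read. The core TGACNNNGC and the heptamer overlap at 1 site in Mt2A.
Srxn1, chr3:161064562-161064861, plus strand: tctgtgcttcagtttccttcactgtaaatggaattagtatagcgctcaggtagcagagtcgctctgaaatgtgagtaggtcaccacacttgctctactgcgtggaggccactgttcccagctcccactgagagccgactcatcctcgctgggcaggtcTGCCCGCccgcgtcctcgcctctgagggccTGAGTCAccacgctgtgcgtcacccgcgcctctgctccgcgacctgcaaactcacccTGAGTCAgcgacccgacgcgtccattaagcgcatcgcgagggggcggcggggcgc
Mt2A, chr19:10838659-10838958, minus strand: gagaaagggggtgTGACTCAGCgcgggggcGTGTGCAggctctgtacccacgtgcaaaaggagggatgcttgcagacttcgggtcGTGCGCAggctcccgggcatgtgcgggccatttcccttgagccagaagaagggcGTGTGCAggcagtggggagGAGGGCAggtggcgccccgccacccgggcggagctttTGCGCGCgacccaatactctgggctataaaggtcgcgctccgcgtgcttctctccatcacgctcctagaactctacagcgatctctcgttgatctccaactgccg
Nqo1, chr19:52220218-52220517, minus strand: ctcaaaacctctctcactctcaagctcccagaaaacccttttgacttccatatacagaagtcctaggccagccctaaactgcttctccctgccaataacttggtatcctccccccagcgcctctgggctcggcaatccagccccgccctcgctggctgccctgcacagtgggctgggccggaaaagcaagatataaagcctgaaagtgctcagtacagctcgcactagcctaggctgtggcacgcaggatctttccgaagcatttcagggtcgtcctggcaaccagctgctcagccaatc

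The Mt2A window held 5 matches to TGCNCNC and 1 match to TGACNNNGC, TGACTCAGC, which began 237 bases before the start. The Srxn1 window held no TGACNNNGC but 2 copies of TGAGTCA, beginning 62 and 5 bases before the start, and 1 match to TGCNCNC. The Nqo1 window held none of the 3 motifs, which says only that these letters are not in that window. Of 33465 windows of the same length in the RefSeq table, 12.07% held TGACNNNGC, 49.59% held TGCNCNC and 7.33% held TGANTCA. Members were counted per gene over all their windows, and Txnrd1 and Gpx4 had more than 1. Of the 36 members with a window, 10 held TGACNNNGC, among them 5 of 16 inducible targets (Gclm, Me1, Mt2A, Sesn2 and Txnrd1) and 4 of 16 constitutive genes (Prdx1, Prdx4, Prdx5 and Sod2). TGCNCNC was in 22 of the 36 and TGANTCA in 6 (Bach1, Glrx, Me1, Mt2A, Prdx1 and Srxn1). Hmox1, Gsr, Txnip, Prdx6 and Msra had no matched window.

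Nqo1 went the other way from Srxn1 and Mt2A. Its lowest intensity was 1346, its median 1682 and its highest 2229 in high-dosed animals, against 2493, 2501 and 2247 in controls 1, 2 and 9. All high-dosed animals lay below all controls, though the highest, animal 3, came close to control 9. The log2 fold change was -0.51 ± 0.13 (0.703-fold), with a limma adjusted p of 0.0249. The call was lost after median centring (-0.469, adjusted p = 0.0558) and without control 1 or 2 (-0.484 and -0.482, adjusted p = 0.12 and 0.0823).

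**Figure D2:**
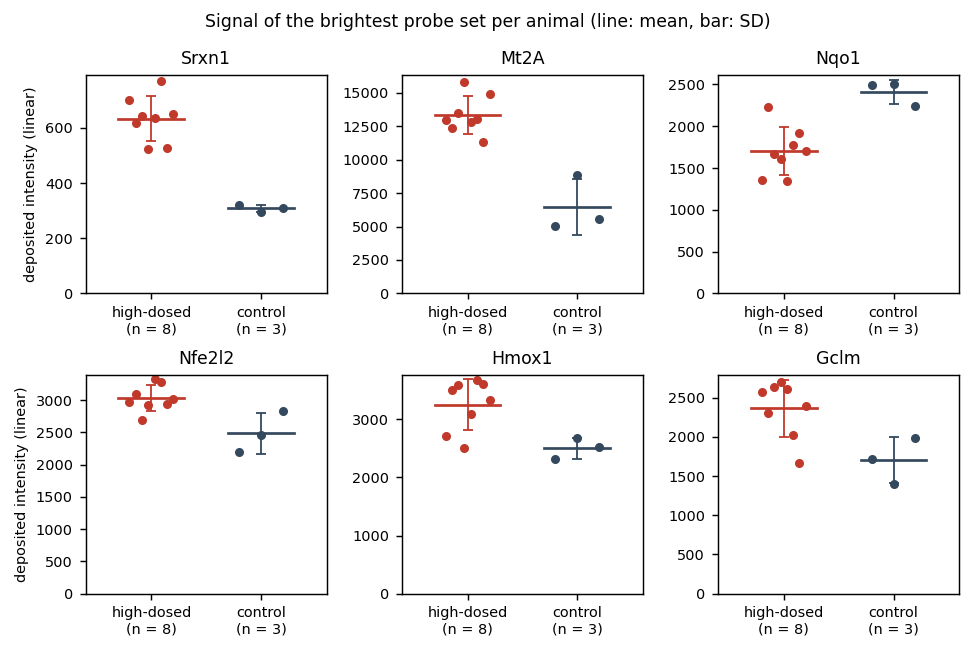
Deposited intensity (vertical axis, linear, from 0) of the brightest probe set of 6 members, with 1 point per animal, high-dosed animals in red and controls in dark blue, the line at the mean and the bar the SD. The groups are apart for Srxn1, Mt2A and Nqo1 and overlap for Nfe2l2, Hmox1 and Gclm.

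The regulators gave 1 called gene of 4, where 10.6% of all genes tested were called. Nfe2l2 had a lowest intensity of 2699.8, a median of 2999 and a highest of 3336 in high-dosed animals, against 2189.9, 2454 and 2825 in controls 1, 2 and 9. Control 9 lay within the high-dosed range, so the groups overlapped. The log2 fold change was 0.29 ± 0.077, or 1.22-fold (limma adjusted p = 0.0359). The call was lost in 9 of 18 other settings, among them quantile normalization (0.257, adjusted p = 0.0612), median centring (0.325, adjusted p = 0.0568), and the omission of control 1 (0.199, adjusted p = 0.222), of control 2 (0.279) or of high-dosed animal 3, 5, 6, 8 or 11 (0.266 to 0.292). Nrf2 is controlled mainly through the stability of its protein, which arrays do not measure.

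Bach1, the repressor of Hmox1 and other targets, had 202 to 291 in high-dosed animals and 288 to 335 in controls, with a log2 fold change of -0.26 ± 0.098 that did not pass (limma adjusted p = 0.109). Keap1 had 566 to 718 in high-dosed animals and 564 to 599.9 in controls (0.080 ± 0.075, limma adjusted p = 0.551). Mafg had a log2 fold change of 0.037 ± 0.15 (limma adjusted p = 0.905), but its high-dosed animals fell on both sides of the controls. High-dosed animals 2, 3, 4, 5 and 6 had 802 to 949, animals 8, 10 and 11 had 555 to 625, and controls had 696 to 771. The arrays of animals 8, 10 and 11 also had the lowest median intensities, 149, 153 and 149, against 159 to 186 in the other high-dosed animals. The part of this in the Mafg values was not tested. Mafg had a log2 fold change of -0.000191 after quantile normalization, and its sign also turned without control 1 or high-dosed animal 5 or 6.

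Neither Hmox1 nor Blvrb passed with all arrays. Hmox1, the inducible heme oxygenase, had a lowest intensity of 2504, a median of 3416 and a highest of 3676 in high-dosed animals, against 2317, 2676 and 2519.5 in controls 1, 2 and 9. High-dosed animals 2 and 5 were the low ones, and animal 5 lay within the control range. The log2 fold change of 0.36 ± 0.11 did not pass (limma adjusted p = 0.0583), and it passed without high-dosed animal 2 (0.395, adjusted p = 0.0323) or 5 (0.411, adjusted p = 0.0209). Hmox1 is abundant in macrophages, and in bulk liver a change in the number of cells of a type and a change in the RNA per cell cannot be told apart. The summed signal of 10 of 13 Kupffer cell and macrophage markers was 29625 to 39824 in high-dosed animals and 23148, 29970.5 and 30865 in controls 1, 2 and 9. Of the 10 tested, 9 lay above 0 and Cd163 (-0.22) below, where 5779 of the 10714 genes tested lay above 0. Only Mrc1 was called, as higher, or 1 of the 10, where 7.91% of all genes tested were called higher. None of the 10 was listed at 0, and their part in the Hmox1 values was not tested. Of 7 endothelial markers tested, 3 rose, Pecam1 (0.60), Emcn (0.55) and Stab2 (0.40), where 7.91% of all genes tested were called higher. Tek (0.29), Vwf (0.20), Kdr (0.17) and Lyve1 (-0.12) did not pass. The median log2 fold change of the 7 was 0.29. The endothelial sum was 11445 to 12582 in high-dosed animals and 10026 to 11159 in controls, without overlap, and the part of these markers in the members' values was not tested either. Blvrb, biliverdin reductase B, had 2745 to 3129 in high-dosed animals and 2893 to 3329 in controls (-0.069 ± 0.055, limma adjusted p = 0.467).

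Gclm, the modifier subunit of the glutamate-cysteine ligase that limits glutathione synthesis, had a lowest intensity of 1661, a median of 2485 and a highest of 2703 in high-dosed animals, against 1721, 1400.0 and 1988 in controls 1, 2 and 9. High-dosed animal 10 lay among the controls, and the other seven lay above them. The log2 fold change of 0.46 ± 0.14, or 1.37-fold, did not pass (limma adjusted p = 0.055). It passed after median centring (0.497, adjusted p = 0.0343), with the stricter filter (adjusted p = 0.0488), without high-dosed animal 10 (0.53, adjusted p = 0.0124) and with control 9 omitted (0.573, adjusted p = 0.0493). The catalytic subunit Gclc, by contrast, had 1879 to 2610.2 in high-dosed animals and 2044 to 2611 in controls, with a log2 fold change of -0.080 ± 0.099 (limma adjusted p = 0.656). Both Gclc probe sets gave values below 0, and without control 1 the brighter turned to 0.0106. Gsr, which regenerates glutathione, had a log2 fold change of -0.14 ± 0.12 (limma adjusted p = 0.513), and 0.00128 without control 1. Gss, the second enzyme of glutathione synthesis, had 0.048 ± 0.10 (limma adjusted p = 0.801). Slc7a11 had 87.9 to 121 in high-dosed animals and 85.7 to 110.1 in controls.

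Among the other inducible targets, Sqstm1, the autophagy receptor p62 that binds Keap1, had 8646 to 10801 in high-dosed animals and 7470 to 9435 in controls. Its log2 fold change of 0.22 ± 0.075 did not pass (limma adjusted p = 0.0772), a second bright Sqstm1 probe set gave 0.23, and it passed without control 9 (0.315, adjusted p = 0.0277). Sesn2, a stress-induced regulator of mTORC1, had 432 to 713 in high-dosed animals and 694 to 862 in controls (-0.38 ± 0.13, limma adjusted p = 0.0755), and it passed as lower without high-dosed animal 2 (-0.419, adjusted p = 0.0491). A dimmer Sesn2 probe set gave -0.052 ± 0.087 (limma over probe sets, adjusted p = 0.765), and its groups overlapped. Without control 9, where Gclm and Sqstm1 passed, 4 inducible targets were called higher in place of 2. Txnrd1, the cytosolic thioredoxin reductase, had 3240 to 3927 in high-dosed animals and 2835 to 3678 in controls (0.12 ± 0.078, limma adjusted p = 0.38). Cbr1, a carbonyl reductase, had 0.044 ± 0.084 and Osgin1, a growth inhibitor induced by oxidative stress, had -0.024 ± 0.16. Osgin1 spread most among high-dosed animals of the inducible targets, from 4317 in animal 6 to 9237 in animal 2, against 6356 to 6864 in controls, and its sign turned after median centring (0.0148) or without animal 6 (0.0603).

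Pgd, Taldo1 and Tkt, of the pentose phosphate pathway, and Me1 did not pass on their brightest probe sets. Pgd, whose reaction makes NADPH, had 2339 to 3544 in high-dosed animals and 3216 to 3942 in controls, with a log2 fold change of -0.32 ± 0.13 that did not pass (limma adjusted p = 0.127). Taldo1 and Tkt, of the branch of that pathway that makes no NADPH, had 0.030 ± 0.058 and -0.040 ± 0.060, with limma adjusted p of 0.784 and 0.713, and Tkt turned to 0.00116 without control 2. Me1, the malic enzyme that makes NADPH in the cytosol, depended on the probe set. The brighter had 1637 to 2643 in high-dosed animals and 2279, 1246 and 1980.3 in controls 1, 2 and 9, with a log2 fold change of 0.23 ± 0.16 (limma adjusted p = 0.4). The dimmer had 643 to 1384 in high-dosed animals and 1694, 1225 and 1253 in controls 1, 2 and 9, with a log2 fold change of -0.62 ± 0.17 and an adjusted p of 0.0491 over probe sets, of which 6.92% were called. High-dosed animal 3 was the highest of its group on both, and control 2 was the lowest of its group on both. The call of the dimmer probe set was lost without any 1 of the 11 arrays other than high-dosed animal 3 (adjusted p from 0.0572 to 0.273).

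**Figure D3:**
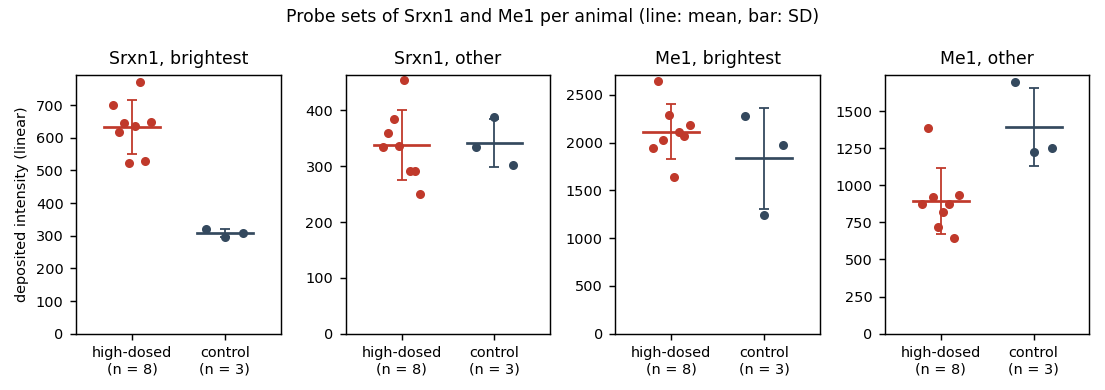
Deposited intensity (vertical axis, linear, from 0) of the brightest probe set and of the other probe set past the filter for Srxn1 and for Me1, with 1 point per animal, the line at the mean and the bar the SD. Srxn1 is higher in high-dosed animals on its brightest probe set and overlaps on the other, and the Me1 probe sets have differences of opposite sign.

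Of the 17 constitutive genes tested, limma called 0 with all arrays, where 10.6% of all genes tested were called. Sod1, the cytosolic superoxide dismutase, had 19104 to 20082 in high-dosed animals and 21277, 21481 and 20059 in controls 1, 2 and 9, with a log2 fold change of -0.094 ± 0.029 that did not pass (limma adjusted p = 0.0558) and passed with the stricter filter (adjusted p = 0.0406). It also passed without high-dosed animal 2 (adjusted p = 0.0444) or control 9 (-0.124, adjusted p = 0.03). Sod2, the mitochondrial form, had -0.11 ± 0.063 and Cat, catalase, had -0.081 ± 0.057, with limma adjusted p of 0.306 and 0.415. The glutathione peroxidases Gpx1, Gpx3 and Gpx4 had log2 fold changes of -0.045 ± 0.026, -0.046 ± 0.089 and -0.055 ± 0.039, with limma adjusted p from 0.308 to 0.784. The 95% interval of Gpx1 ran from -0.10 to 0.011 and that of Cat from -0.20 to 0.042.

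Of the thioredoxin system, Txn1, Txn2, Txnrd1, Txnrd2 and Txnip did not pass with all arrays. Txn2, the mitochondrial thioredoxin, had 3274 to 3765 in high-dosed animals and 3848 to 4222 in controls, without overlap, and a log2 fold change of -0.16 ± 0.053 (limma adjusted p = 0.0778). Txnrd2, which reduces it, had 539 to 683 in high-dosed animals and 591, 437 and 408 in controls 1, 2 and 9, with 0.30 ± 0.099 (limma adjusted p = 0.0687), and without control 1, the high one, it passed (0.449, adjusted p = 0.0217). Txn1, the cytosolic thioredoxin, had 12351 to 13323 in high-dosed animals and 13187 to 13369 in controls (-0.039 ± 0.029, limma adjusted p = 0.441). Txnip, which binds and inhibits thioredoxin, had 1757 to 3229.7 in high-dosed animals and 1870 to 2289 in controls (0.057 ± 0.14, limma adjusted p = 0.827). High-dosed animal 10 was far above the rest of its group for Txnip, and without it the log2 fold change was -0.0203.

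The peroxiredoxins, which remove peroxides and are the substrates of Srxn1 when overoxidised, were not called. Prdx3, the mitochondrial one, had 3095 to 4177 in high-dosed animals and 3446, 3376 and 2839 in controls 1, 2 and 9, with 0.21 ± 0.081 (limma adjusted p = 0.12), and without the low high-dosed animal 2 it passed (0.246, adjusted p = 0.0269). Prdx2, Prdx4, Prdx5 and Prdx6 had log2 fold changes of 0.038, -0.0056, -0.016 and -0.096, with limma adjusted p from 0.306 to 0.953. Prdx4 and Prdx5 turned to 0.0333 and 0.0224 after median centring. Prdx2 and Cat are abundant in red cells, and the summed signal of 6 of 10 erythroid markers on the array ran from 10044.5 to 19971 in high-dosed animals and from 9128 to 13512 in controls. Of these, 4 were tested and limma called 0, with 0 at an unadjusted p below 0.05, and their part in the Prdx2 and Cat values was not tested. Glrx, a glutaredoxin, had 3272 to 4389 in high-dosed animals and 3591 to 3667 in controls (0.15 ± 0.077, limma adjusted p = 0.261) and passed without high-dosed animal 2 (0.189, adjusted p = 0.0308). A dimmer Glrx probe set gave 0.059 ± 0.14 (limma over probe sets, adjusted p = 0.837). Msra, which repairs oxidised methionine, had 0.083 ± 0.12 (limma adjusted p = 0.719), and -0.0744 without control 9.

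**Figure D4:**
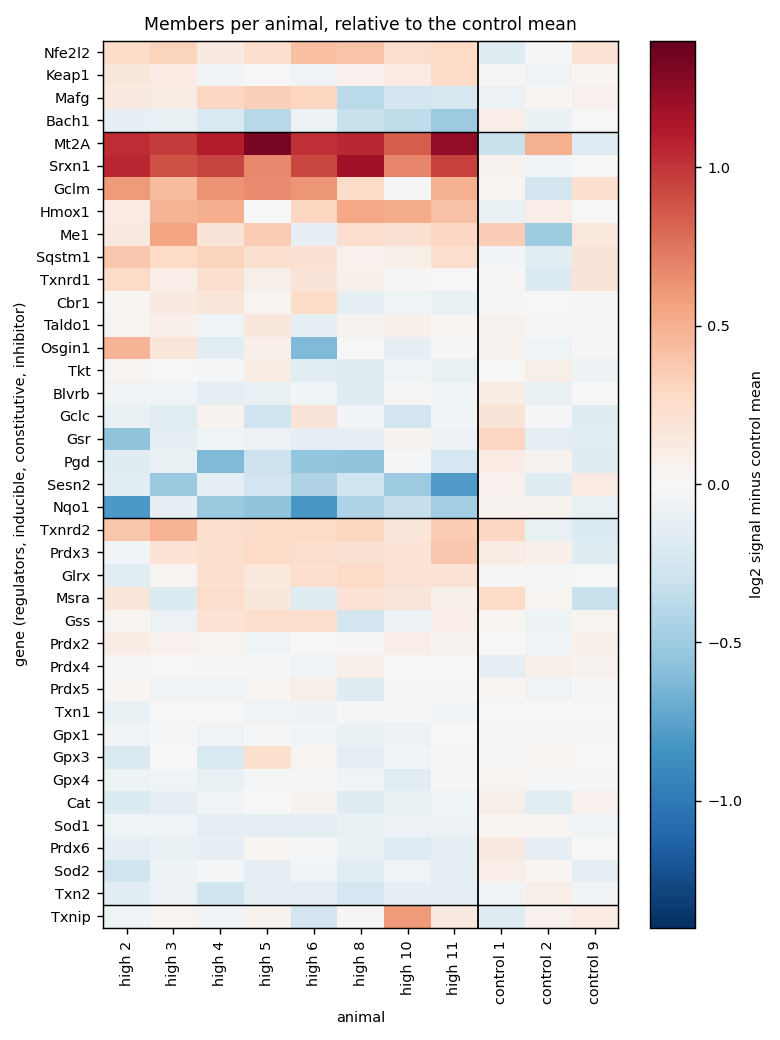
Log2 signal of each tested member (rows, grouped by role) in each animal (columns, high-dosed left of the line, controls right), minus the mean of the 3 controls, in colour. Mt2A and Srxn1 are above the control mean and Nqo1 below it in all 8 high-dosed animals, and the constitutive genes have log2 fold changes between -0.16 and 0.30, with Txnrd2 the highest.

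In no high-dosed animal did a whole class lie on 1 side of the controls. Per high-dosed animal, 4 to 9 of the 17 inducible targets lay above the highest control and 2 to 6 below the lowest. Of the 17 constitutive genes 3 to 5 lay above the highest control and 3 to 10 below the lowest. The share of all genes outside the range of the 3 controls was not counted per animal. Whether these counts differ from that share is therefore not known. Among the 8 high-dosed animals, the signal of Srxn1 was set against that of Txnrd1, Nqo1, Gclc, Gclm, Mt2A, Hmox1 and Nfe2l2. Over these 7 relations Pearson's r ran from -0.234 to 0.602 and Spearman's rho from -0.214 to 0.548, and 0 passed (two-sided exact permutation; the smallest adjusted p was 0.771 for r and 0.793 for rho, the smallest unadjusted p 0.11). With the 2 animals farthest from the median of Srxn1 left out, r ran from -0.608 to 0.286, and the highest, of Gclc, became -0.171. Mt2A had 13061 in high-dosed animal 8, where Srxn1 was highest, and 15792 in high-dosed animal 5, where Srxn1 was lowest.

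Outside the members, 50 further genes of redox and glutathione metabolism were on a list chosen with earlier results of these data known. Of the 43 tested, 4 rose, 2 fell and 37 did not pass, with a median log2 fold change of 0.011. Of all genes tested, 10.6% were called, 7.91% higher and 2.74% lower. Txnrd3, a thioredoxin and glutathione reductase best known from testis, had 396 to 559 in high-dosed animals and 254, 261 and 252 in controls 1, 2 and 9, and rose by 0.81 ± 0.095 (limma adjusted p = 0.000533). Ggct, which breaks down gamma-glutamyl dipeptides, had 1274 to 1839 in high-dosed animals and 2251, 2569 and 2222 in controls 1, 2 and 9, and its log2 fold change was -0.67 ± 0.092 (limma adjusted p = 0.00142). The groups of both were apart, and both calls held in each of the 18 other settings. Akr7a2, an aldehyde reductase, rose by 0.38 ± 0.074, and its call held in all 18 as well. Msrb1, a selenium-dependent methionine sulfoxide reductase, fell (-0.26 ± 0.054), a call lost after median centring and with control 1 omitted (adjusted p of 0.0687 and 0.0788). Sephs2, which makes selenophosphate for selenoproteins, and Slc48a1, a heme transporter, rose by 0.43 ± 0.13 and 0.22 ± 0.066 (limma adjusted p = 0.0472 and 0.0496), and their calls were lost in 14 and 13 of the 18 other settings, without control 1, 2 or 9 among them.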

How the data were processed

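Liver RNA of 8 high-dosed and 3 control rats was hybridised to 1-colour Affymetrix arrays. The authors deposited the intensity of 31099 probe sets per array on a linear scale; MAS5 was used per the submitters' processing notes, and scaling, detection calls and a genome build are not given there. Values were used as deposited, as log2(intensity + 55.26), the 20th percentile of all values. After removal of 57 Affymetrix controls and of probe sets dimmer on average than 7.398 (log2 scale, the 40th percentile), 18625 probe sets and 10714 genes were tested. Of all probe sets 20832 had 1 symbol, 436 several and 9831 none in the platform annotation. Groups were compared with limma 3.58.1 under R 4.3.3, with an intensity trend and Benjamini-Hochberg adjustment, and the fit was tested on simulated data. No depth exists for arrays; the 3 controls limit the precision. Members, classes, further lists (other redox genes; hepatocyte, macrophage, erythroid, endothelial, neutrophil and stellate markers) and motifs were chosen with earlier results of these data known. All members were named, and of the other redox genes those called. Neutrophil markers summed to 451 to 971 in high-dosed animals and 461 to 795 in controls, and stellate markers to 7330.5 to 9633 in high-dosed animals and 7639 to 8204 in controls. Alternatives were 7 other settings and leaving out each of the 11 arrays.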

Additional observations from a re-analysis of the deposited data

Results flagged for a closer look

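In 3 members 1 high-dosed animal stood far from the other seven by Dixon's criterion on log2 signal, which chance meets in about 1 of 20 groups, and 39 members were looked at. Gsr had 519.8 in high-dosed animal 2, against 718 to 826 in the other high-dosed animals and 711 to 984 in controls. Prdx3 had 3095 in high-dosed animal 2, against 3673 to 4177 in the other high-dosed animals and 2839 to 3446 in controls. Txnip had 3229.7 in high-dosed animal 10, against 1757 to 2308 in the other high-dosed animals and 1870 to 2289 in controls.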

How the results depend on the processing

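No paired analysis was possible because the animal numbers of the groups share only number 2. Of the 39 tested members, 19 kept direction and side of the threshold in all 18 other settings, among them Srxn1 and Mt2A, and 10 changed sign in at least 1, all of them uncalled. Inducible targets called lower became 0 after median centring, and leaving out 1 array gave 2 to 4 higher and 0 to 2 lower. Constitutive genes called lower became 1 with the filter at the 60th percentile, and leaving out 1 array gave 0 to 2 higher and 0 to 1 lower. Other redox genes called became 2 higher after quantile normalization and 1 lower after median centring, and leaving out 1 array gave 2 to 3 higher and 1 to 3 lower. Genes called lower became 147 after median centring, and leaving out 1 array gave 244 to 1085 higher, lowest without control 1, and 79 to 325 lower. The dimmer probe set called beside the brightest, that of Me1, was 0 after median centring, without a filter and without a variance trend, and leaving out 1 array gave 0 to 1. Signs turned for Mafg (-0.000191 after quantile normalization; leaving out 1 array gave -0.00633 to 0.0963), Osgin1 (0.0148 after median centring; -0.0951 to 0.0603), Me1 (-0.195 with probe sets averaged; -0.019 to 0.403), Prdx4 (0.0333 after median centring; -0.074 to 0.0366), Prdx5 (0.0224 after median centring; -0.0419 to 0.0061) and the other Srxn1 probe set (0.0153 after median centring; -0.0973 to 0.0593). Leaving out 1 array alone turned Gclc (-0.162 to 0.0106), Gsr (-0.219 to 0.00128), Tkt (-0.0781 to 0.00116), Msra (-0.0744 to 0.219) and Txnip (-0.0294 to 0.113). Where a call was lost or gained, the cause was not tested, except that fewer arrays or another number of genes tested is part of those settings. Signal over background could not be judged without detection calls.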
